A study of Mus musculus with 2 samples.

Results

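The kainate receptor subunit genes Grik1, Grik2, Grik3, Grik4 and Grik5 were followed through DNase-seq maps of mouse frontal cortex. They are 5 of the 21938 protein-coding genes that GENCODE annotates on mm10, and they were taken by symbol. DNase-seq finds DNA that the enzyme DNase I can cut in nuclei, which is mostly the open DNA of promoters and enhancers. The samples form 1 group of 2 libraries from frontal cortex of female B6CASTF1/J mice, first-generation hybrids of C57BL/6J and CAST/EiJ, at 25 days of age, with no treatment named. The labels call the libraries biological replicates 1 and 2 and give them separate tissue samples, but also 1 shared donor record, so the spread between them need not be the spread between animals. There is no second condition to compare with, and every comparison between genes below is a description with no test.

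Kainate receptors are glutamate-gated cation channels made of subunits from this family. GluK1, GluK2 and GluK3, encoded by Grik1, Grik2 and Grik3, bind glutamate with lower affinity and can form channels without the others. GluK4 and GluK5, encoded by Grik4 and Grik5, bind it with higher affinity and reach the cell surface only together with a lower-affinity partner. In cortex and hippocampus these receptors act on both sides of the synapse, where they carry slow excitatory currents and tune the release of transmitter.

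Replicate 1 had 85603 peaks with a median signal of 0.627, and replicate 2 had 87847 peaks with a median of 0.679, where the signal is the authors' read-depth normalized value of each peak. How many reads were sequenced is not given in the sources used here. Signals moved in equal steps within a library, and the median peak stood 111 steps high in replicate 1 and 119 in replicate 2. Marker genes were read for a check of the tissue label: the promoter was open in both libraries at 7 of 7 genes of cortical excitatory neurons, and at 4 of 7 of inhibitory neurons, 2 of 5 of astrocytes, 2 of 5 of oligodendrocytes, 1 of 5 of microglia and 1 of 5 of endothelial cells. It was open at none of 5 hindbrain or spinal cord genes and none of 3 liver genes. Over all protein-coding genes the share was 61.5%. The inhibitory neuron list, at 57.1%, was near that share, and the astrocyte, oligodendrocyte, microglia and endothelial lists were below it. In bulk tissue, an open site in few cells and a weakly open site in many cells cannot be told apart.

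Promoter sequences are shown first, because the open region at 4 of the 5 genes lies on or just upstream of the annotated 5′ end. They come from the mm10 reference, which is C57BL/6J sequence, and run 5′ to 3′ on the gene's own strand. Capitals mark bases inside footprints called in both libraries, a footprint being a short stretch protected from cutting within an open region. Exon bases were left out, 65 for Grik1 and 220 for Grik2, where exons of Grik2 and of another gene, Gm48123, meet the region. For Grik3, 300 bases of a 632 bp region are shown.
Grik1 promoter, chr16:88290266-88290565, minus strand: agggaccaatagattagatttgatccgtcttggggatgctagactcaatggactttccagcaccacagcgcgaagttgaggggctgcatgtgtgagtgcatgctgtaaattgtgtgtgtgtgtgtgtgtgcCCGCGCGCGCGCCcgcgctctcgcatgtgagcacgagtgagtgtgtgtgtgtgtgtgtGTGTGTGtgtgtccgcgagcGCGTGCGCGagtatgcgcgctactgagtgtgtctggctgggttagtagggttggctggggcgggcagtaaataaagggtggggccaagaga
Grik2 promoter, chr10:49788767-49788826, minus strand: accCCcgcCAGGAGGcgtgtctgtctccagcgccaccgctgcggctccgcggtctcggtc
Grik3 promoter, chr4:125490162-125490461, plus strand: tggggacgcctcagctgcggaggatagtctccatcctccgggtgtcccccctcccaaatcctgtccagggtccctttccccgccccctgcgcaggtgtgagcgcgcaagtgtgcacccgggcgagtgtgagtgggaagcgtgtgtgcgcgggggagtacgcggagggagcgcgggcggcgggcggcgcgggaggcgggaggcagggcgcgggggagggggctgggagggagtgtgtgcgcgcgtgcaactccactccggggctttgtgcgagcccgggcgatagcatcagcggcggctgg
Grik4 promoter, chr9:42944821-42945020, minus strand: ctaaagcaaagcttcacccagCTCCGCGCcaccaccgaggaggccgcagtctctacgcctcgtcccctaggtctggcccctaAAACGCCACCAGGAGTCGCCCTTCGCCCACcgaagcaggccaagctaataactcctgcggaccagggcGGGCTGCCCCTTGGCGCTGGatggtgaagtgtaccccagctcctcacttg

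The regions below are the strongest shared open sites away from the promoter of Grik1, Grik3 and Grik4, and the strongest inside the body of Grik5, which was picked after its value was seen. The same marks apply, and 54 exon bases of the second Grik4 region were left out. For Grik4, first and second give the rank by signal and not the intron. The first region lies in intron 8 and the second at the edge of exon 15.
Grik1 intron region, chr16:88204521-88204720, minus strand: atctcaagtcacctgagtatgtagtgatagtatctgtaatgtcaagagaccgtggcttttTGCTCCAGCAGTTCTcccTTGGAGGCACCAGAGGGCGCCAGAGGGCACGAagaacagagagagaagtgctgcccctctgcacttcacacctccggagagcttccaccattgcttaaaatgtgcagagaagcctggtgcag
Grik3 intron region, chr4:125703001-125703200, plus strand: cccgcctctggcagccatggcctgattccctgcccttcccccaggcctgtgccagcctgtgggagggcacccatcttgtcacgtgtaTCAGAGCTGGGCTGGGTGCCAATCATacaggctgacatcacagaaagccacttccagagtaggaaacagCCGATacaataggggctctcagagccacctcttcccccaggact
Grik4 first intron region, chr9:42642941-42643160, minus strand: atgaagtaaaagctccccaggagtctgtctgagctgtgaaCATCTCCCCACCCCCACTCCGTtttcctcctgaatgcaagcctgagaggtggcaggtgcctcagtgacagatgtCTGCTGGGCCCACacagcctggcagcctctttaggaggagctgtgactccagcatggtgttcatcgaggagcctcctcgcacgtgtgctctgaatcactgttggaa
Grik4 second intron region, chr9:42550261-42550406, minus strand: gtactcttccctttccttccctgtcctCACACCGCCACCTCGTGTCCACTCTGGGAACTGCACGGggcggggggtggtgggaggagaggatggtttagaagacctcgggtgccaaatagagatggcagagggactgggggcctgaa
Grik5 intron region, chr7:25036041-25036240, minus strand: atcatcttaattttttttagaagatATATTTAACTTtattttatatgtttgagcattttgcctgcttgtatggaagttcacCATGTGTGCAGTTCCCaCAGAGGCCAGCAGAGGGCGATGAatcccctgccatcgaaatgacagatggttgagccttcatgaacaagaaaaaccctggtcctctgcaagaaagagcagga

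At all 5 genes each library had a promoter peak, a peak counting when it came within 1 kb of any annotated transcription start. Over all protein-coding genes this held for 61.5%, and for 86.9% of the 2492 that are at least 100 kb long, as 4 of the 5 kainate genes are. The family split into levels. Grik4 and Grik2 averaged just above 2, Grik5 lay near 1.2, and Grik3 and Grik1 lay below 0.8. The median over the 5 genes was 1.18, against 2.34 over all coding genes with a promoter peak and 1.60 over the long ones. Grik4 and Grik2 stood above the median of the long genes. Grik3, at 0.718, stood above their 10th percentile of 0.643, and Grik1, at 0.605, stood below it. The family median is the value of Grik5, which averages different sites of the 2 libraries. At its 5′ end alone Grik5 had 0.983, still the middle of the family.

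Among the lower-affinity subunits, Grik2 encodes GluK2, the subunit known from the mossy fibre synapses of the hippocampus. The Grik2 promoter peak had a signal of 1.98 in replicate 1 and 2.06 in replicate 2, a mean of 2.02 ± 0.0552 (SD, n = 2). This was the closest pair of values relative to its level in the family, and 42.8% of coding genes with a promoter peak had a lower mean. The peak covered the start of the transcripts Grik2-207 and Grik2-210, and the lowest false discovery rate of the cut rate within it was 2.01e-25 in replicate 1 and 1.12e-10 in replicate 2.

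Grik3 encodes GluK3, known for its low sensitivity to glutamate. Its promoter signal was 0.740 in replicate 1 and 0.697 in replicate 2, a mean of 0.718 ± 0.0308 (SD, n = 2), and 9.21% of genes were lower. The values were close, but the peaks behind them were not alike. Replicate 1 had a peak of 632 bp that ended 73 bp upstream of the single annotated start, with 7 footprints. Replicate 2 had only a 58 bp peak, 558 bp upstream, with none. Of the bases within 100 bp of the start, 28 in replicate 1 and 0 in replicate 2 passed a false discovery rate of 0.05, so opening at the start itself was not detectable in replicate 2.

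Grik1 encodes GluK1, known in rodents from interneurons and sensory neurons. It had the weakest promoter of the family, at 0.565 in replicate 1 and 0.645 in replicate 2, a mean of 0.605 ± 0.0567 (SD, n = 2), and 5.96% of genes were lower. The peak covered the start in both libraries. Replicate 1 had a further peak over the more internal starts of the same cluster at 0.441, which replicate 2 did not have.

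Of the higher-affinity subunits, Grik4 encodes GluK4. Its strongest promoter peak, 428 bp upstream of the 5′ end, had 2.24 in replicate 1 and 1.87 in replicate 2, a mean of 2.06 ± 0.262 (SD, n = 2), with 43.5% of genes lower. The peak had the same boundaries in both libraries. A second promoter region covered the start itself, with 1.19 in replicate 1 and 0.851 in replicate 2, so at this gene the more open site lay beside the start and not on it.

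Grik5 encodes GluK5, the most widely expressed of the higher-affinity partners in brain. Its promoter signal was 0.853 in replicate 1 and 1.50 in replicate 2, a mean of 1.18 ± 0.459 (SD, n = 2), the widest spread of the family. These values are of different sites. That of replicate 1 lay upstream of the gene, 839 bp from the 5′ end. That of replicate 2 lay inside the gene, 953 bp from the start of Grik5-203, a transcript annotated as a retained intron. Replicate 1 had a peak of 0.966 at this inner site too, above its upstream peak, but 1013 bp from that start and so outside the limit of 1 kb. Within 1 kb of the 5′ end alone, where each library still had a peak at all 5 members (both libraries at 56.7% of coding genes), the signal of Grik5 was 0.853 in replicate 1 and 1.11 in replicate 2, a mean of 0.983. Both upstream peaks lie in the neighbouring gene Zfp574 and within 1 kb of one of its annotated starts, so this region counts for both genes. No base within 100 bp of the main start cluster of Grik5 passed this rate in either library, and the nearest open region was 589 bp away.

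In order of promoter signal the genes ran Grik4, Grik2, Grik5, Grik3 and Grik1. The values of Grik4 and Grik2 overlapped between libraries and could not be ordered. Those of Grik5 lay below both and above the remaining genes in each library. Those of Grik3 lay above those of Grik1, and the lower value of Grik3, 0.697, stood above the higher one of Grik1, 0.645. With 2 libraries these gaps could not be tested.

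**Figure D1:**
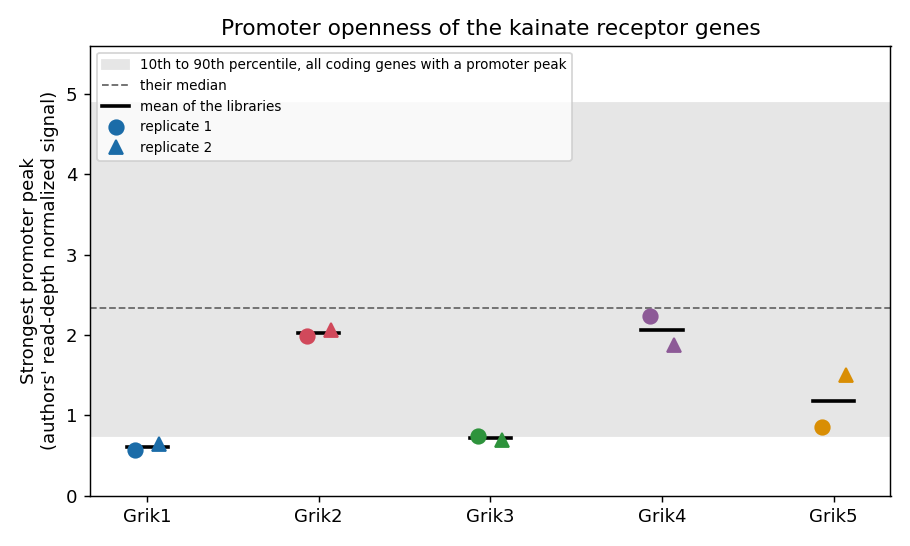
Signal of the strongest promoter peak of each kainate receptor gene in replicate 1 (circles) and replicate 2 (triangles), with the mean as a bar. The dashed line is the median of all coding genes with a promoter peak, 2.34, and the grey band runs from their 10th to their 90th percentile, 0.744 to 4.89. Grik1 and Grik3 lie below the band on their means, and no gene of the family reaches the dashed line. The median of coding genes of at least 100 kb with a promoter peak, 1.60, is not drawn. Grik2 and Grik4 lie above it on their means.

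The count of 5 depended on how near a peak had to be. With a limit of 500 bp, 3 of the 5 genes still had a peak in both, against 59.8% of all coding genes. The same 3, Grik1, Grik2 and Grik4, had one in the authors' shorter peak list (55.6% of all coding genes). They were also the ones with a peak over a start in both libraries, which held for 78.1% of the 13489 coding genes with a promoter peak. Grik3 and Grik5 passed only through peaks to the side of their starts.

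Several of these genes have starts far inside the gene. Starts within 500 bp of each other were joined, which gave 17 start clusters, and 6 had a peak within 1 kb in both libraries, against 33.8% of the 52546 clusters of all coding genes. Every gene had such a peak at the cluster of its 5′ end. The sixth was the second cluster of Grik2, 5.43 kb downstream, where 4 protein-coding transcripts begin. It had a signal of 0.898 in replicate 1 and 0.805 in replicate 2 in a region of 1040 bp with 10 footprints in each library. The peak of replicate 1 covered a start, and that of replicate 2 lay 239 bp from the nearest one. A weaker peak of replicate 2, at 0.685, covered a start. The other 5 clusters of Grik2, which lie 253 to 685 kb from the 5′ end, had no peak in either library. The start of Grik4-201, 136 kb inside Grik4, had a peak of 0.514 in replicate 2 and none in replicate 1. Neither of the inner clusters of Grik1, 234 kb and 366 kb from the 5′ end, had one.

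The sequence of the promoters differed in CpG content. In the 1 kb around the 5′ end Grik3 had 125 CpG dinucleotides, more than 98.2% of coding genes, and Grik4 had 106, more than 94.8%. Grik2 had 53, Grik1 had 44 and Grik5 had 41, against a median of 41 over all coding genes and 60 over those with a promoter peak. The gene with the most CpG, Grik3, had the second-lowest promoter signal of the family. Grik4, with the next most, had the highest mean signal, and Grik5, with the fewest, had the middle one.

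Along the whole loci, each taken as the gene body with 10 kb on either side, peaks of the libraries were merged where they overlapped. The 5 loci held 90 regions. Both libraries called 41 of them, replicate 1 alone called 27 and replicate 2 alone called 22. The shared part was 45.6%, against 53.6% of the 109538 regions of the genome. Shared regions had a median signal of 0.898 in replicate 1 and 1.11 in replicate 2, while regions seen in 1 library had medians of 0.435 in replicate 1 and 0.480 in replicate 2. Of the 41, 8 were at a promoter of the gene. The other 33 comprised 21 in introns, 5 over exons and 7 in the flanks, all of these at Grik5.

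Shared regions were unevenly spread over the family. Grik4 had 17 in a gene of 426 kb and Grik5 had 14 in a gene of 62.5 kb, while Grik1 had 5 in 394 kb, Grik2 had 3 in 694 kb and Grik3 had 2 in 223 kb. Per 100 kb of window this came to 17.0 for Grik5, 3.81 for Grik4, 1.21 for Grik1, 0.821 for Grik3 and 0.420 for Grik2. The median of 1.21 stood beside 3.97 over all coding genes and 2.53 over those of at least 100 kb. Among those long genes, 3.77% had a lower density than Grik2, 10.7% than Grik3, 17.9% than Grik1 and 74.8% than Grik4. The order of the sparse genes depended on the peak list. With the stronger 50% of each library's peaks Grik1 had 1 shared region, or 0.241 per 100 kb, below the 0.420 of Grik2, and Grik4 had 9, or 2.02 per 100 kb, while Grik2, Grik3 and Grik5 had the same numbers as before. With the authors' shorter list Grik3, at 0.411, was beside Grik2, at 0.420, and Grik5 came to 7.27 per 100 kb with 6 regions. Grik5 stood highest and Grik4 next with each of these lists.

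**Figure D2:**
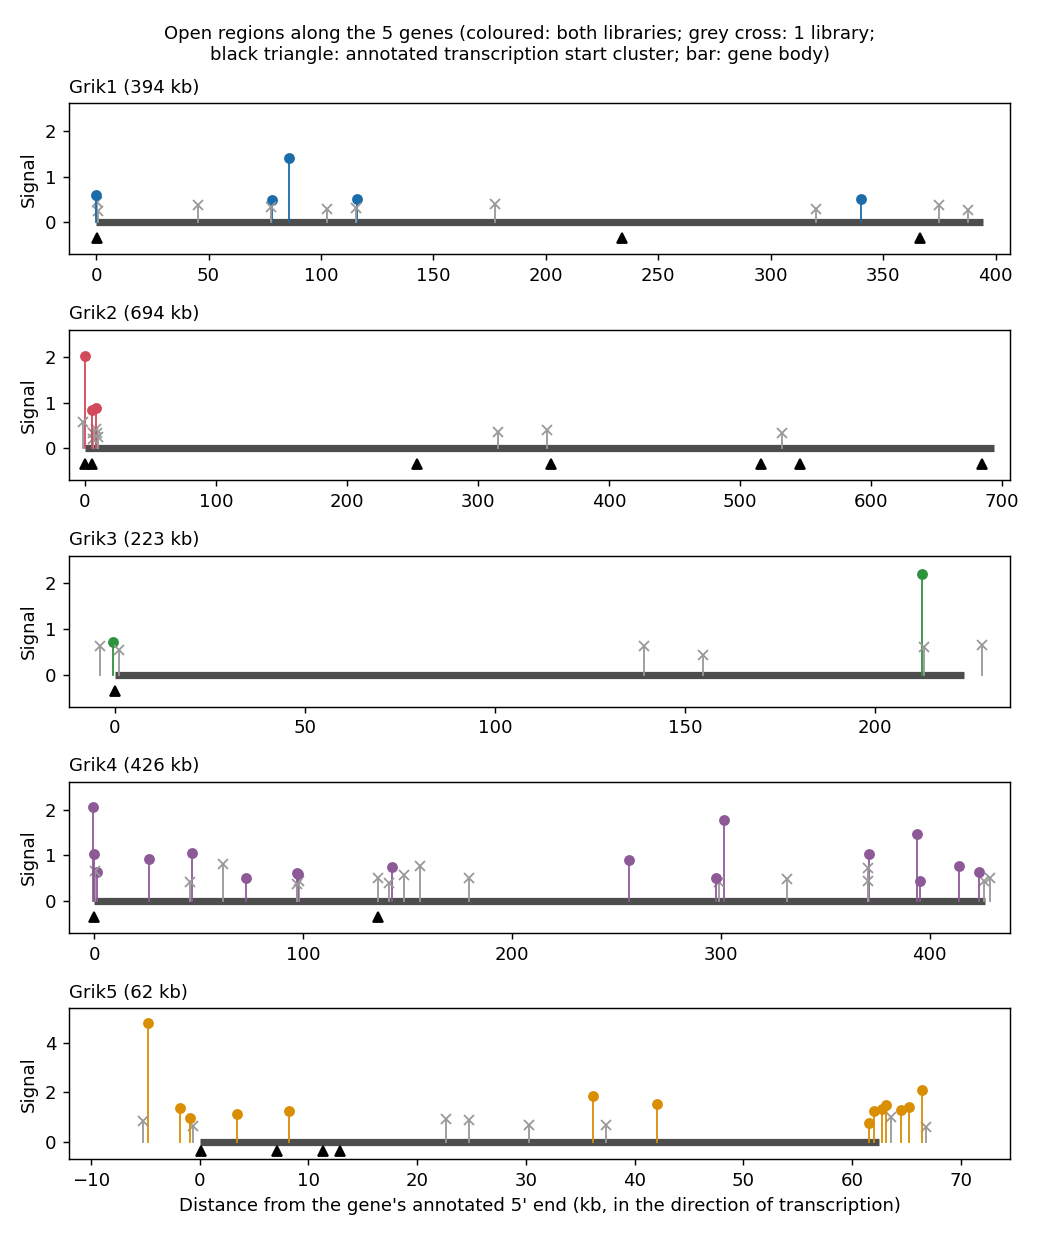
Open regions along each gene by distance from its annotated 5′ end (kb), with height giving the mean signal of the libraries that called the region. Coloured points are regions called in both libraries, grey crosses those in 1, triangles the start clusters and the bar the gene body. The shared regions of Grik2 sit within 8.19 kb of its 5′ end, those of Grik4 run along the whole gene, and the tallest region at Grik5, 4.81, lies upstream of it. The vertical axis of Grik5 is longer than the others.

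Inside Grik1, 3 of the 5 shared regions lay in the first intron. The strongest was 85.6 kb from the 5′ end, with 1.56 in replicate 1 and 1.27 in replicate 2, above the promoter of the gene in both libraries. The next strongest away from the promoter, 116 kb from the 5′ end, had 0.582 in replicate 1 and 0.428 in replicate 2, close to the rest of the locus. A region over exon 9, at 340 kb, had 0.497 in each library.

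Grik2 is the longest of the genes. Besides its 2 start clusters it had 1 shared region, 8.19 kb from the 5′ end in intron 2, with 0.639 in replicate 1 and 1.15 in replicate 2. From there to the 3′ end there was none. In that stretch replicate 1 had a peak of 0.328 in intron 12, and replicate 2 had peaks of 0.400 and 0.365 in intron 7, besides weak peaks of replicate 1 within 9.75 kb of the 5′ end.

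Grik3 had 1 shared region besides its promoter, in intron 13, 212 kb downstream of the 5′ end. Its signal was 1.88 in replicate 1 and 2.51 in replicate 2, a mean of 2.19 ± 0.450 (SD, n = 2). This was above the promoter of the gene in each library, with a lowest false discovery rate of 6.45e-15 in replicate 1 and 8.86e-20 in replicate 2. The remaining peaks of this locus were each called in 1 library and stood between 0.424 and 0.645.

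Grik4 had 15 shared regions away from its promoter, 6 of them in intron 1. The strongest lay in intron 8, 301 kb from the 5′ end, with 1.31 in replicate 1 and 2.23 in replicate 2. In replicate 2 this exceeded the promoter, and in replicate 1 it did not. The second reached over the edge of exon 15, 394 kb from the 5′ end, with 1.68 in replicate 1 and 1.24 in replicate 2. The weakest of the 15 was at 0.435 in replicate 1 and 0.423 in replicate 2, in intron 15.

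At Grik5 the strongest region of the window belonged to a neighbour by position. This region, 4.77 kb upstream, at a promoter of Zfp574, had 4.11 in replicate 1 and 5.52 in replicate 2. Without the 3 regions at promoters of other coding genes, the one shared at the 5′ end of Grik5 among them, 11 of the 14 were left, and within the gene body alone there were 6. Inside the gene the strongest lay in intron 12, 36.2 kb from the 5′ end, with 2.03 in replicate 1 and 1.68 in replicate 2, followed by one in the same intron at 42.1 kb with 1.72 in replicate 1 and 1.31 in replicate 2. Both exceeded the signal at the 5′ end of Grik5 in each library.

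**Figure D3:**
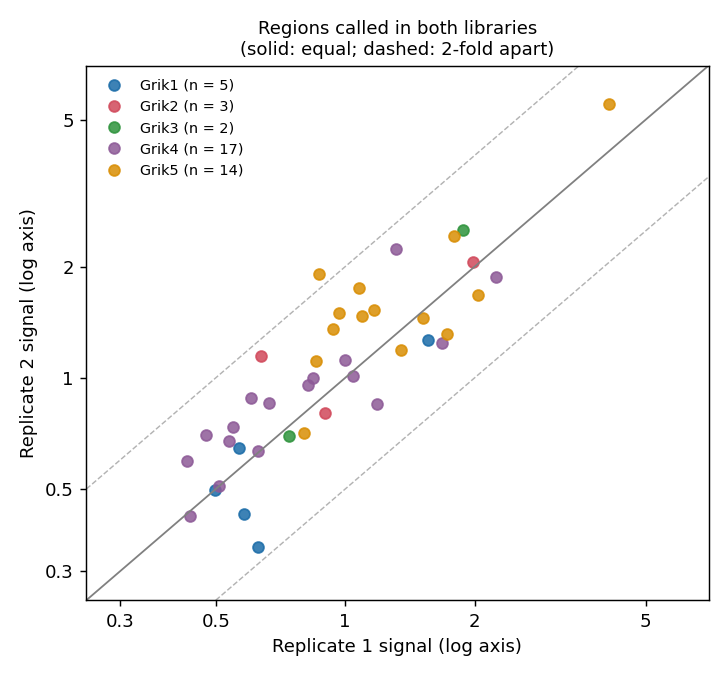
Signal in replicate 2 against replicate 1, both on log axes, for the 41 regions called in both libraries, coloured by gene. The solid line marks equal signals and the dashed lines a 2-fold difference; 1 region, upstream of Grik5, lies outside them.

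The libraries were about as far apart here as elsewhere. The log2 ratio of replicate 1 over replicate 2 had an SD of 0.42 over the 41 regions and 0.39 over the 58659 shared regions of the genome, and its median was -0.19 over the 41 and -0.14 over the genome. It ranged from -1.14, at a region 1.80 kb upstream of Grik5 with 0.870 in replicate 1 and 1.91 in replicate 2, to 0.85, at a region 78.2 kb inside Grik1 with 0.627 in replicate 1 and 0.348 in replicate 2. Over the genome 1.75% of shared regions differed more than 2-fold.

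Footprints were most numerous at Grik4 and Grik5, the genes with the most shared regions, but Grik2 had more than Grik1 with fewer regions. Grik4 had 63 in replicate 1 and 51 in replicate 2, and Grik5 had 40 in replicate 1 and 50 in replicate 2. Grik2 had 26 in replicate 1 and 22 in replicate 2, and Grik1 had 20 in each. Grik3 had 19 in replicate 1 and 3 in replicate 2, the one gene where the libraries differed several-fold, beside 8 peaks in replicate 1 and 3 in replicate 2. The median per 100 kb of window was 4.83 over the family, 14.8 over all coding genes and 8.56 over the long ones. Of the 41 shared regions, 35 held a footprint in each library, close to the 84.6% of shared regions over the genome.

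A footprint of replicate 1 met one of replicate 2 at 61 places, which is 36.3% of the 168 footprints of replicate 1, against 43.6% over the genome. Grik5 held 25 of them, Grik4 held 23, Grik1 held 6, Grik2 held 5 and Grik3 held 2. The Grik3 promoter held none, and its printed sequence therefore has no capitals.

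Short motifs were searched on both strands. The letters searched were GGGCGG of the SP and KLF factors, GCATGCG of NRF1, TGACGTCA of CREB, CCGGAAG of ETS factors, CCAAT of the CCAAT box, AAGATGGC of YY1, GCGTGGGCG of EGR factors, TATAAA of the TATA box and the site of RFX factors, GTTGCCA. Also searched were TGANTCA of AP-1, CAGATG of proneural E-box factors, TTGGCA of NFI, TAATTA of homeodomain factors and AACAATG of SOX factors, with CTCF, REST and MEF2 by their consensus. A match is a run of letters and does not show that the factor was there. Footprints were searched with 5 bases on either side. For background, the same search ran on the central 200 bp of 13398 promoter regions and of 38289 other shared regions.

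The CTCF consensus, the motif of the main architectural protein of vertebrate chromosomes, matched 2 of the 61 shared footprints, 3.28%, against 4.26% over the genome. One is the longest run of capitals in the Grik5 intron region printed above, and 10.1% of non-promoter windows hold such a match. The other was in intron 13 of Grik4, 371 kb from its 5′ end, in a region with 1.05 in replicate 1 and 1.01 in replicate 2. With 1 mismatch allowed, a setting added after the data were seen, 4 footprints matched, 6.56% against 10.9% over the genome. These took in the longest run of capitals of the Grik1 intron region and the Grik5 region at 42.1 kb, and 26.9% of non-promoter windows match this looser form.

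In the Grik3 intron region, CCAAT and TTGGCA both fell in the longest run of capitals, and overlapped there as TGCCAAT. The CCAAT box occurs in 21.5% of non-promoter windows and the NFI letters in 17.6%. The first Grik4 intron region held CAGATG, as do 24.4% of such windows, overlapping the edge of the footprint that holds its second run of capitals. The Grik5 intron region held the same E-box letters, and those of the TATA box, which are in 6.71% of such windows. The second Grik4 region held GGGCGG, found in 10.2%, and TTGGCA. The strongest Grik4 promoter region held GGGCGG at the edge of its last run of capitals, and 58.3% of promoter windows hold these letters. GGGCGG matched 6 of the 61 shared footprints, 9.84%, against 12.6% over the genome.

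The AMPA and NMDA receptor genes were read in the same way. All 4 AMPA receptor genes, which carry fast excitatory transmission, were open at the promoter in each library, with a median signal of 1.34. They ran from Gria2 at 2.96 ± 1.05 (SD, n = 2), through Gria4 at 1.56 and Gria1 at 1.13, to Gria3 at 0.795. Of the NMDA receptor genes, 5 of 7 were open in this way, with a median of 1.55. The share was 61.5% over all coding genes. It was 86.9% over those of at least 100 kb, as all 4 AMPA genes are. Grin1, the obligatory subunit, had the highest at 2.52 ± 0.874 (SD, n = 2), followed by Grin2d at 1.64, Grin2b at 1.55 and Grin3a at 1.42. Grin2c, known from cerebellum, and Grin3b, known from motor neurons, had no promoter peak in either library. The kainate median of 1.18 lay inside the range of the AMPA genes and below the 5 open NMDA genes, while the kainate genes themselves, from 0.605 to 2.06, overlapped both groups. That median is the mixed value of Grik5. Its 0.983 at the 5′ end alone also lay inside the AMPA range and below those NMDA genes. For shared regions per 100 kb the medians were 1.21 for kainate, 1.69 for AMPA and 4.51 for NMDA genes. These medians do not allow for gene length. The NMDA median is that of Grin2d, a gene of 46.5 kb, and Grin1, Grin2c and Grin3b are shorter still. Among genes of at least 100 kb, the NMDA genes Grin2a, Grin2b and Grin3a had 1.96 to 2.68. The AMPA genes, all of that length, had 0.336 to 5.61, and Grik1 to Grik4 had 0.420 to 3.81.

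**Figure D4:**
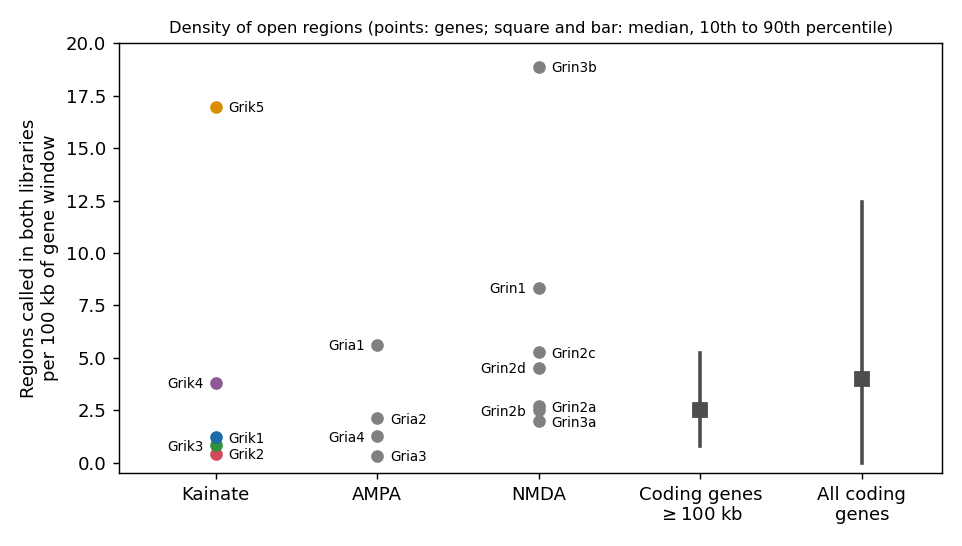
Regions called in both libraries per 100 kb of window for each kainate, AMPA and NMDA receptor gene (points), beside the median (square) and the 10th to 90th percentile (bar) of coding genes of at least 100 kb and of all coding genes. Grik2, at 0.420, and Gria3, at 0.336, are the lowest of the receptor genes shown, and Grik5, at 17.0, and Grin3b, at 18.9, the highest. The latter pair are shorter genes, of 62.5 kb for Grik5 and 6.48 kb for Grin3b.

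Genes whose products bind kainate receptors or act on them were also open at their promoters. Of 12 listed, 11 were analysed here, and all 11 had a shared promoter peak, against 61.5% of coding genes. Pick1, a PDZ protein of glutamate receptors, had 5.72 ± 0.585 (SD, n = 2). Dlg4, for the postsynaptic scaffold PSD-95, had 2.41 ± 0.801, Sdcbp, for syntenin, had 2.38 ± 0.175, and Adarb1, for the enzyme ADAR2 that edits GluK1 and GluK2 transcripts, had 2.13 ± 0.273. Those 4 were the highest of the 11. The auxiliary subunits of kainate receptors, named here for that role after their values were seen, lay lower, with 1.30 ± 0.0377 for Neto2 and 1.08 ± 0.116 for Neto1. They were not the lowest, as the rest of the 11 ran from 0.616 for C1ql2 to 1.95 for C1ql3.

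The genes nearest to each member were sought over 4 numbers, the log2 promoter signal and the log2 number of peaks per 100 kb in each library. They were Pir, Adamts18 and Syndig1l for Grik1, Cfap299, Galc and Thoc2 for Grik2, Prox1, 5730522E02Rik and Cnksr2 for Grik3, Sirt5, Fbxw8 and Rnf11 for Grik4, and Asic1, Necab3 and Cd68 for Grik5. Pir was the closest, at a distance of 0.04 from Grik1, and the nearest gene to Grik3, Prox1, was at 0.38. Many genes have such a pair of levels, and the likeness covers only these numbers in 2 libraries.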

How the data were processed

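DNase-seq of nuclei from frontal cortex was analysed in 2 libraries of 1 group. Per the deposited text files, all coordinates are on mm10, and each library's peaks, footprints and false discovery rates come from its own alignment, so replicates were not pooled. What the sources used here leave unstated are the aligner, the callers, the handling of the CAST/EiJ alleles and the depth of sequencing, so no interval from counts could be given. The authors' peak signal is normalized for read depth, its scale is unstated, and 100% of values fell on multiples of 1 step per library (within 0.1 of a step). The signal and the place of each peak are the authors' own. The authors' deposited table of q-values (false discovery rates of the cut rate) lists positions of at most 0.05. Their footprint lists carry 1 constant, 0.01.

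From the 2 peak lists per library the longer was used. Genes and starts came from GENCODE for GRCm38.p6, and sequences from the RefSeq FASTA of GRCm38.p6. Peaks were merged at an overlap of 1 bp, and a region counted as shared when both libraries contributed. The window was the gene body and 10 kb on either side. The steps were tested on simulated data. No test between groups was possible, since there is 1 group. The members, the lists and the motifs were chosen with earlier results of these data known. Named were all 5 members, for each the strongest promoter peak and the 2 strongest shared regions away from its promoter, and for each receptor or partner list the 4 highest genes and those without a shared promoter peak, except for some items that are not reported here. Alternatives were another peak list, stronger peaks, other promoter widths, 1 start per gene, peak centres, a 50% overlap, the gene body alone, footprints inside peaks and each library alone. Tools were Python 3.11.15, pandas 2.3.3, numpy 2.4.6, pyfaidx 0.9.0.4 and matplotlib 3.10.9.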

Additional observations from a re-analysis of the deposited data

How the results depend on the processing

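Of 105 values recomputed under alternatives, 81 stayed within the spread between libraries or within 1.5 times, and 24 did not. The 81 include all 35 recomputed promoter signals, which had little room to move, as given below. The number of genes with a shared promoter peak was 5 and became 3 with the shorter peak list, 3 with a half-width of 500 bp and 3 when a peak had to cover a start, a condition added after the data were seen. It was 4 with the stronger 50% of peaks, where Grik1 was lost, and 5 under the remaining alternatives. The 41 shared regions became 24 with the shorter peak list, and each library alone had 63 to 68. The median of 1.21 shared regions per 100 kb became 0.724 with the shorter list, and 2.41 to 2.88 with each library alone; these are larger by construction, since a region then needs only 1 library. Without regions at promoters of other coding genes, an alternative added after the data were seen, 38 of 41 were left, and in the gene body alone 31. Footprints, 157 on average, numbered 146 to 168 by library, 108.5 in the gene body alone and 142.5 inside peaks. With both libraries in use, the promoter signals of the 5 genes stayed within 1 SD in 25 of 25 alternatives where a peak remained. This says little, since the signal is that of the strongest peak, which most alternatives either kept or lost. The signals of Grik1 to Grik4 were unchanged wherever a peak remained. Only Grik5 moved, to 1.44 with a half-width of 2.5 kb and to 0.983 with 1 start per gene or with peak centres. Its SD of 0.459 is between different sites. With 1 of 2 libraries the limit of 1 SD holds by arithmetic. In 5 cases there was no value (Grik3 and Grik5 with the shorter list and with 500 bp, Grik1 with the stronger peaks). With 2 libraries an SD is itself poorly known, and a site absent from a list was not detectable at this depth rather than shown to be closed. No paired analysis was possible because the libraries form 1 group.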
